A study of Mus musculus with 18 samples.

Results

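The cGAS-STING pathway was followed through 8 of its components and negative regulators in B16F10 melanomas, a pigmented mouse tumor line grown under the skin of female C57BL/6 mice. The 8 genes (Cgas, Sting1, Tbk1, Ikbke, Irf3, Trex1, Enpp1 and Samhd1) were picked by name and function, not by their values, from a table of 41079 genes. Their mRNA was measured by RNA sequencing of whole tumors, 18 in all with 3 in each of 6 groups, taken 48 h after the last of a series of injections into the tumor given every 2 days. PBS tumors received buffer alone, Free PS473 tumors the uncarried ribozyme, and PS473@CPs tumors the ribozyme on cationic polymers. NKMOF-101-[Mn] tumors received an empty framework of manganese and squaric acid, M5@NKMOF-101-[Mn] tumors the same framework loaded with M5, a catalytically inactive form of the ribozyme, and PS473@NKMOF-101-[Mn] tumors the framework loaded with the active ribozyme. PS473 is a Pistol ribozyme, an RNA that cuts other RNA, directed at the transcript of PD-L1 (Cd274). The sample titles of the last group read NKMOF-102, while its treatment description reads NKMOF-101, and it is called PS473@NKMOF-101-[Mn] here. No sequenced group received manganese without the framework or the polymers without a ribozyme, so the metal and its carrier cannot be told apart.

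In this pathway cGAS binds DNA in the cytosol and makes the messenger cGAMP, which binds STING on the endoplasmic reticulum. STING then recruits the kinases TBK1 and IKKε (encoded by Ikbke), and TBK1 phosphorylates IRF3, which enters the nucleus and turns on interferon-β and other antiviral genes. TREX1 degrades cytosolic DNA, SAMHD1 hydrolyses dNTPs and limits the DNA fragments that leak from stalled replication forks, and ENPP1 hydrolyses cGAMP outside cells, so that all 3 restrain the pathway. Manganese ions are known to raise the sensitivity of cGAS to DNA. The pathway is controlled mostly by binding and phosphorylation, which mRNA levels do not report.

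The sequences before the start sites of Samhd1, Ikbke and Cgas are shown because Samhd1 and Ikbke varied with Sting1 across the tumors, whereas Cgas did not. Each is the 250 bases upstream of the start in RefSeq (mouse build GRCm38.p6), 5′ to 3′ on the minus strand, which carries all 3 genes. Capitals mark the 1 match to the GAS element (TTCNNNGAA), a motif of interferon-responsive genes.
Samhd1, chr2:157135097-157135346: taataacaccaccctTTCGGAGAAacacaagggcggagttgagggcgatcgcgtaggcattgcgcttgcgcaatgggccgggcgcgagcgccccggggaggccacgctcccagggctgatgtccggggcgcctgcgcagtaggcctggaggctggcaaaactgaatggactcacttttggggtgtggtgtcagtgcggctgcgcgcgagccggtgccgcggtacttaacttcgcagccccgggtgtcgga
Ikbke, chr1:131279564-131279813: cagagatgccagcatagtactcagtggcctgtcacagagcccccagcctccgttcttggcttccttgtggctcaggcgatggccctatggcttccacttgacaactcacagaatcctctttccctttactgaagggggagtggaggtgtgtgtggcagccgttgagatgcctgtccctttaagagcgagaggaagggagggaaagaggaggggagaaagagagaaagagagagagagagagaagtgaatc
Cgas, chr9:78443238-78443487: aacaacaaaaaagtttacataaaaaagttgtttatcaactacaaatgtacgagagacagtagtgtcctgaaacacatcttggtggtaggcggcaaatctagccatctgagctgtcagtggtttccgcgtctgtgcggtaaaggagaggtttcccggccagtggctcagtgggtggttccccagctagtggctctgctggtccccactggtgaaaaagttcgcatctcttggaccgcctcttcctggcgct
On both strands, 3 motifs were searched in 8 promoter entries of 7 members, all but Sting1, whose promoter was not searched. The motifs were GAS, the interferon-stimulated response element (ISRE, written as GAAA, any 2 bases, GAAA) and an NF-κB site (GGGA, any base, TTTCC). The GAS element 235 bases before the Samhd1 start was the single match in the entries searched. Among 32851 mouse promoters of the same length, 7.02% held a GAS match, 2.98% an ISRE match and 0.356% an NF-κB match. A match is a run of letters only, and occupancy was not measured.

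Values are FPKM, fragment counts scaled for gene length and sequencing depth, and can be compared between genes. Samhd1 had the highest level of the 8 genes in each tumor and Enpp1 the lowest, and by their means over 18 tumors Tbk1 (12.2 FPKM) and Irf3 (10.5 FPKM) followed Samhd1 (21.6 FPKM). The number of fragments assigned to genes, recovered from the values, was 17212000 to 28401000 a tumor, and across tumors 426 to 733.5 of them fell on Cgas, 1361.5 to 3314.5 on Samhd1 and 17 to 121.5 on Enpp1. Melanoma genes were high in every tumor (summed level of 9 genes 6305 to 9096 FPKM in the 9 framework tumors and 5931 to 8146 FPKM in the 9 others). Leukocyte markers (12 genes, led by Lyz2) summed to 168.2 to 609 FPKM and 102 to 584 FPKM, and markers of T and NK cells (12 genes) to 5.41 to 27.7 FPKM and 1.33 to 16.1 FPKM. Keratinocyte markers, genes of the skin over the tumor (9 of 10 in the table), ran from 0.308 to 905 FPKM in framework tumors and from 0.411 to 3221 FPKM in the others, with 8 of the 9 at 0 in some tumor of each set. They exceeded 900 FPKM in 4 tumors, PBS tumors 2 and 3, PS473@CPs tumor 2 and NKMOF-101-[Mn] tumor 1. Skeletal muscle (7 genes), endothelial (6), fibroblast (6) and adipocyte (5) markers reached at most 51.7, 91.7, 642 and 79.6 FPKM in any tumor. Cd274, the ribozyme target, read 9.74 to 32.9 FPKM in PS473@NKMOF-101-[Mn] tumors and 12.3 to 21.5 FPKM in PBS tumors. In a whole tumor, fewer cells of a type and less RNA per cell cannot be told apart. The mice were implanted in the right flank, so a tumor stands for a mouse, and p-values measure the spread between tumors.

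**Figure D1:**
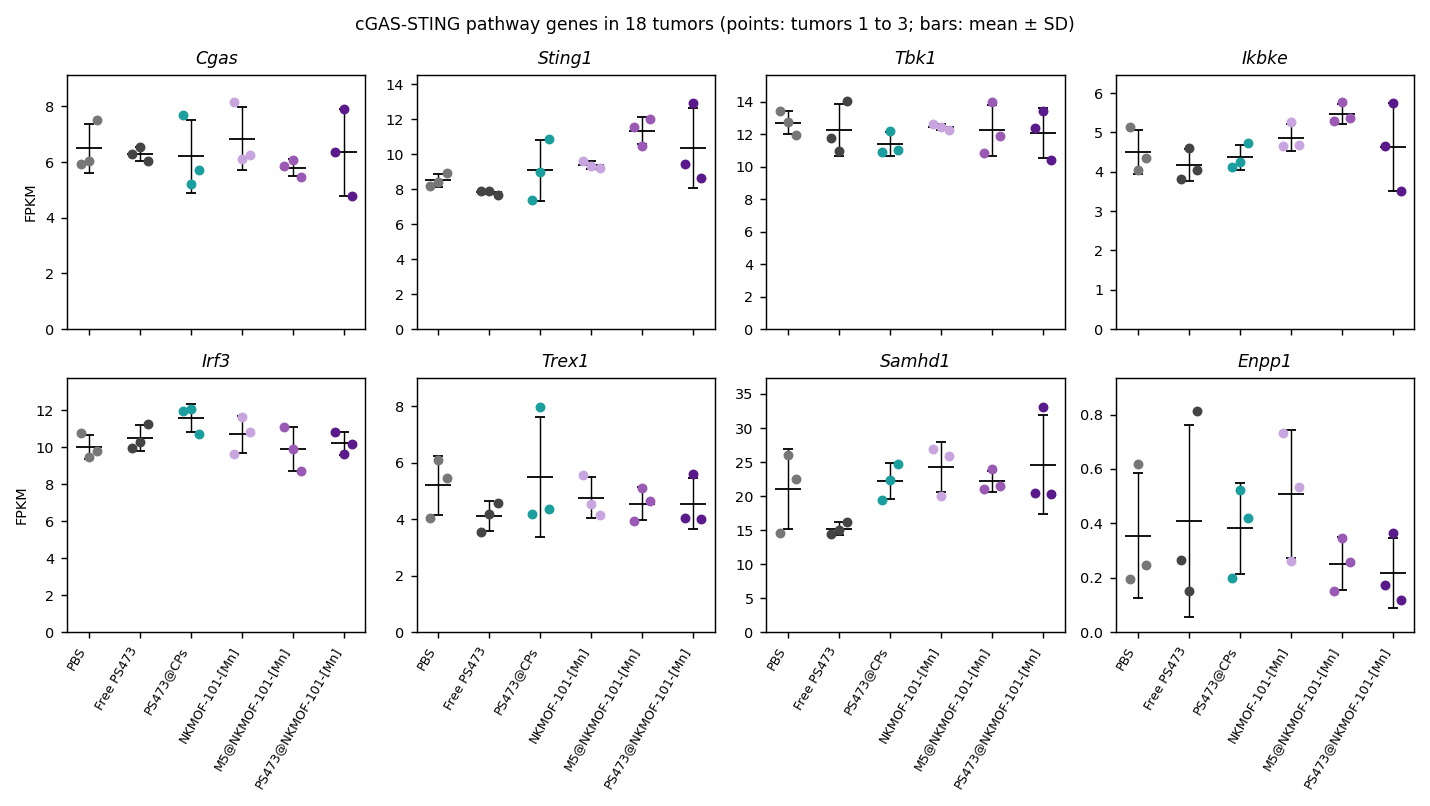
Level of each of the 8 genes (FPKM, linear axis from 0) in the 18 tumors by group, with tumors 1 to 3 from left to right and the mean ± SD of 3 tumors as bars. Sting1 lies between 8.64 and 12.9 FPKM in framework tumors and between 7.40 and 10.8 FPKM in the others. Sting1, Cgas, Tbk1 and Irf3 each overlap between framework tumors and the others.

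The question of whether the manganese framework was accompanied by altered expression of the sensing machinery was asked by comparing the 3 framework groups with the other 3. None of the 7 members tested passed an adjusted p under 0.05 with a fold change above 2 in that comparison, and neither did any other of the 12357 genes tested (percentage called 0%). At an unadjusted p under 0.05, Sting1, Samhd1 and Ikbke were higher, 3 of the 7, against 2.93% of all genes tested. Sting1 varied with Ikbke (Pearson r = 0.731) and with Samhd1 (0.661) over the same tumors, so the 3 are not independent. The median log2 difference of the 7 was 0.02, against -0.01 over all genes. Enpp1 fell below the mean of 1 FPKM required for the test.

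Cgas, the DNA sensor, read 5.94, 6.03 and 7.49 FPKM in PBS tumors, 6.29, 6.53 and 6.05 FPKM in Free PS473 tumors and 7.69, 5.21 and 5.72 FPKM in PS473@CPs tumors. It read 8.14, 6.13 and 6.24 FPKM in NKMOF-101-[Mn] tumors, 5.84, 6.07 and 5.48 FPKM in M5@NKMOF-101-[Mn] tumors and 6.36, 7.90 and 4.76 FPKM in PS473@NKMOF-101-[Mn] tumors. The highest and the lowest values both came from framework tumors. The groups overlapped except that the M5@NKMOF-101-[Mn] tumors all lay below the NKMOF-101-[Mn] tumors, by 6.07 against 6.13 FPKM at the nearest. That pair of groups was not tested, and the share of all genes that do the same was not computed. The log2 difference between framework and other groups was -0.01 ± 0.09 (SE, adjusted p = 0.991 by limma), with an unadjusted 95% interval from -0.20 to 0.19.

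Sting1, the receptor of cGAMP, read 8.20, 8.42 and 8.93 FPKM in PBS tumors, 7.87, 7.90 and 7.68 FPKM in Free PS473 tumors and 7.40, 8.96 and 10.8 FPKM in PS473@CPs tumors. In framework tumors it read 9.63, 9.33 and 9.20 FPKM with the empty framework, 11.5, 10.5 and 12.0 FPKM with M5 and 9.43, 12.9 and 8.64 FPKM with PS473. The 3 framework groups had the 3 highest means, with M5@NKMOF-101-[Mn] first (11.3 ± 0.776 FPKM, SD, n = 3) and Free PS473 last (7.82 ± 0.119 FPKM, SD, n = 3). Neighbouring groups in that order overlapped except at its end, where every PBS tumor lay above every Free PS473 tumor, as in 1.54% of all genes tested. The difference between framework and other groups was 0.26 ± 0.07 on the log2(FPKM + 1) scale (SE, unadjusted p = 0.00358, adjusted p = 0.900 by limma). It ranged from 0.21 to 0.30 when single tumors were left out and was 0.19 without the M5@NKMOF-101-[Mn] group. With the leukocyte markers as a covariate it was 0.22, and without the 4 tumors rich in keratinocyte markers 0.27.

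Against PBS, Sting1 did not overlap in 2 of the 3 framework groups. It was 0.37 ± 0.13 higher with M5@NKMOF-101-[Mn] (unadjusted p = 0.0115, adjusted p = 0.999) and 0.13 ± 0.13 higher with NKMOF-101-[Mn] (adjusted p = 1.00), and all 3 tumors of both groups exceeded all 3 PBS tumors. By limma, the difference with PS473@NKMOF-101-[Mn] was 0.24 ± 0.13 (adjusted p = 0.993), and those tumors overlapped PBS. Without PS473@NKMOF-101-[Mn] tumor 2 that difference was 0.077, and with the leukocyte score as covariate the difference with NKMOF-101-[Mn] was 0.058. Genes that lay higher without overlap made up 4.75% of all genes tested with M5@NKMOF-101-[Mn] and 4.52% with NKMOF-101-[Mn]. In the former comparison 2 of the 7 members did so, Sting1 and Ikbke, and in the latter 1 did, Sting1. None of the 7 members was called in any of the 5 comparisons with PBS, nor was any other gene tested (0%), and these comparisons share the PBS tumors.

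Tbk1, the kinase that phosphorylates IRF3, was among the steadiest of the members, with a range of 10.4 to 14.1 FPKM and a median of 12.2 FPKM over the 18 tumors. Its log2 difference between framework and other groups was 0.02 ± 0.06 (SE, adjusted p = 0.970 by limma). Irf3 itself ranged from 8.69 to 12.1 FPKM, with a difference of -0.05 ± 0.05 (SE, adjusted p = 0.903 by limma). The coefficient of variation over the 18 tumors was 8.91% for Tbk1 and 8.72% for Irf3, against 16.7% for Sting1. Of the 6 groups PS473@CPs had the highest Irf3 mean (11.6 ± 0.747 FPKM, SD, n = 3), and its lowest tumor overlapped PBS. Irf3 shares 88 exonic bases with Bcl2l12 on the opposite strand in the GENCODE M21 annotation. Cgas shares 201 with Gm8093, and Ikbke 159 with Gm28914 and 65 with Gm28913, also on the opposite strand. The strand setting of the counting was not given in the sources used here.

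Ikbke encodes IKKε, which acts beside TBK1. It read 5.13, 4.05 and 4.34 FPKM in PBS tumors, 3.83, 4.61 and 4.04 FPKM in Free PS473 tumors and 4.11, 4.24 and 4.74 FPKM in PS473@CPs tumors. In framework tumors it read 4.66, 5.26 and 4.68 FPKM with the empty framework, 5.28, 5.77 and 5.37 FPKM with M5 and 4.64, 5.74 and 3.51 FPKM with PS473. The M5 tumors all lay above PBS, as in 4.75% of all genes tested, while the PS473 group held the lowest of the 18 values. They also lay above the next group in the order, NKMOF-101-[Mn], but only by 5.28 against 5.26 FPKM at the nearest. That pair of groups was not tested, and its share of all genes was not computed. The difference between framework and other groups was 0.16 ± 0.07 (SE, unadjusted p = 0.0440, adjusted p = 0.900 by limma). It was 0.10 without the M5@NKMOF-101-[Mn] group and 0.11 without the 4 tumors rich in keratinocyte markers. Against PBS the M5 group differed by 0.24 ± 0.12 (adjusted p = 0.999 by limma), and by 0.078 without those 4 tumors.

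Among the negative regulators Samhd1 stood out by its level and its spread. It read 14.6, 26.02 and 22.5 FPKM in PBS tumors, 14.4, 15.1 and 16.2 FPKM in Free PS473 tumors and 19.5, 22.3 and 24.8 FPKM in PS473@CPs tumors. In framework tumors it read 26.9, 20.01 and 25.8 FPKM with the empty framework, 21.1, 23.98 and 21.4 FPKM with M5 and 20.5, 33.1 and 20.3 FPKM with PS473. Apart from PBS tumor 1, the Free PS473 tumors were the lowest of the 18. The difference between framework and other groups was 0.28 ± 0.12 (SE, unadjusted p = 0.0283, adjusted p = 0.900 by limma). With the leukocyte markers as a covariate it was 0.16, and without the 4 tumors rich in keratinocyte markers it was 0.41, the part of leukocytes in the difference being otherwise not tested.

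PS473@NKMOF-101-[Mn] against Free PS473, the same ribozyme with and without the framework, gave the largest of the members' differences. Samhd1 was 0.62 ± 0.20 higher (SE, unadjusted p = 0.00754, adjusted p = 0.792 by limma) and Sting1 0.34 ± 0.13 higher (unadjusted p = 0.0180, adjusted p = 0.931). For both genes all 3 tumors with the framework exceeded all 3 without it, as did 2.34% of all genes tested. None of the 7 members passed the adjusted threshold, nor did any of the 12357 genes (0%), and 2 of the 7 were higher at an unadjusted p under 0.05, against 2.11% of all genes. PS473@NKMOF-101-[Mn] tumor 2 had the highest Samhd1 and Sting1 of all 18 tumors. Without it the differences were 0.40 for Samhd1 and 0.19 for Sting1. With tumors weighted by their quality the limma adjusted p values were 0.0121 for Samhd1 and 0.0395 for Sting1, at fold changes under 2. These weights did not converge, and they ran from 0.206 in PS473@NKMOF-101-[Mn] tumor 3 to 17.1 in Free PS473 tumor 1. The share of all genes that passed in this comparison under the weights is not given here. In the test over all 6 groups under the same weights, 18.7% of all genes passed.

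When the same ribozyme was carried by the framework and by the polymers, the members differed by -0.19 (Trex1) to 0.17 (Sting1). Of the 7, 0 passed an adjusted or an unadjusted threshold (0% of all genes tested at the adjusted one and 2.29% at the unadjusted one). Without PS473@NKMOF-101-[Mn] tumor 2 the Sting1 difference was 0.0086, and without PS473@CPs tumor 2 the Trex1 difference was 0.063. None of the 7 was called between the framework with PS473 and the empty framework, nor was any other gene tested (0%). The framework with M5 was not tested against the empty framework. Active and inactive ribozyme on the framework differed by -0.22 (Ikbke) to 0.11 (Samhd1). Of the 7, 0 passed either threshold (0% of all genes tested at the adjusted one and 0.591% at the unadjusted one). Leaving out tumors 2 and 3 of PS473@NKMOF-101-[Mn] in turn took the Ikbke difference to -0.36 and -0.069, and Samhd1 was -0.11 without tumor 2. The unadjusted 95% interval for Sting1 between the active and the inactive ribozyme ran from -0.41 to 0.14. The extra difference of the framework when it carried PS473 was 0.22 ± 0.18 for Sting1 and 0.40 ± 0.28 for Samhd1 (interaction, adjusted p = 1.00 for both by limma). Without PS473@NKMOF-101-[Mn] tumor 2 these were 0.059 and 0.18, and without the 4 tumors rich in keratinocyte markers the Samhd1 value was 0.018. Over all 6 groups the moderated F test called none of the 7, and 0 of 12357 genes at an adjusted p under 0.05 (0%). Sting1 had an unadjusted p of 0.0273, where 1.99% of genes were under 0.05, and 59.1% of its variance lay between groups, against a median of 23.3% over all genes tested.

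**Figure D2:**
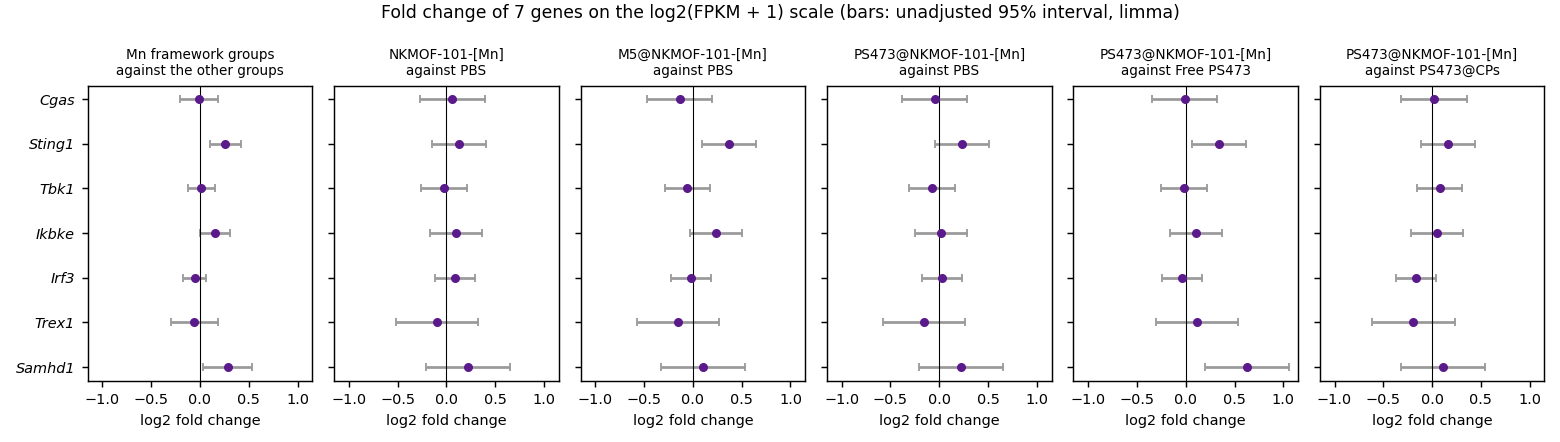
Log2 fold change of the 7 tested genes on the log2(FPKM + 1) scale in 6 comparisons, points being limma estimates and bars unadjusted 95% intervals. Samhd1 at 0.62 and Sting1 at 0.34 in PS473@NKMOF-101-[Mn] against Free PS473 stand to the right of 0, and Cgas, Tbk1 and Irf3 lie near 0 in the framework comparison.

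Trex1, the exonuclease that clears cytosolic DNA, varied with the keratinocyte markers of the tumors. It read 6.08 and 5.47 FPKM in PBS tumors 2 and 3, 7.95 FPKM in PS473@CPs tumor 2 and 5.56 FPKM in NKMOF-101-[Mn] tumor 1, the 4 tumors rich in keratinocyte markers. In the other 14 tumors it lay between 3.53 and 5.60 FPKM. Its Pearson correlation with the keratinocyte score (mean log2(FPKM + 1) of the markers) over 18 tumors was 0.846 (permutation p = 1e-05, the smallest the permutations can give, adjusted p = 0.00052 over 52 relations). Spearman's rho was 0.812 (permutation p = 0.0001), r was 0.762 without the 2 tumors farthest from the median score, and 0.830 after subtraction of the group means. With the leukocyte score Trex1 passed by rank only (r = 0.504, permutation p = 0.0330, adjusted p = 0.123, rho = 0.612, permutation p = 0.00812, adjusted p = 0.0309). The difference between framework and other groups was -0.06 ± 0.11 (SE, adjusted p = 0.939 by limma), and it was 0.09 without the 4 tumors. All 1147 exonic bases of Trex1 are shared with Atrip on the same strand in GENCODE M21, so that its fragments are uncertain. Atrip read 4.27 and 5.27 FPKM in the PBS tumors 2 and 3, 4.18 FPKM in PS473@CPs tumor 2 and 4.41 FPKM in NKMOF-101-[Mn] tumor 1, within its range of 4.01 to 5.40 FPKM over all 18.

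Enpp1, which removes extracellular cGAMP, was scarce in every tumor. It ranged from 0.118 FPKM to 0.812 FPKM, the highest value belonging to Free PS473 tumor 3 and the lowest to PS473@NKMOF-101-[Mn] tumor 3. With the filter lowered to a mean of 0.1 FPKM its log2 difference between framework and other groups was -0.06 ± 0.10 (SE, adjusted p = 0.928 by limma among 18312 genes). Over the 18 tumors Enpp1 varied with the leukocyte score (Pearson r = 0.743, permutation p = 0.0004, adjusted p = 0.0078, Spearman's rho = 0.759, permutation p = 0.00041). The relation was 0.793 without the 2 tumors farthest from the median score and 0.916 after subtraction of group means. It also varied with the keratinocyte score (r = 0.644, permutation p = 0.00423, adjusted p = 0.0293, rho = 0.628, permutation p = 0.00656, and r = 0.562 without the 2 farthest tumors).

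The members themselves varied together only in part. Among their 28 pairs, 2 passed an adjusted p under 0.05 by Pearson's r over the family of 52 relations and 5 by Spearman's rho, Trex1 with Samhd1, Tbk1 with Enpp1 and Trex1 with Enpp1 being the pairs added. Sting1 and Ikbke had a Pearson r of 0.731 over 18 tumors (permutation p = 0.0006, adjusted p = 0.0078, Spearman's rho = 0.789, permutation p = 0.00019), and r was 0.627 without the 2 tumors farthest from the median Sting1. Within the 9 framework tumors r was 0.742, and within the 9 others 0.402. After subtraction of group means r was 0.606. Sting1 and Samhd1 had an r of 0.661 (permutation p = 0.00285, adjusted p = 0.0247, rho = 0.653, permutation p = 0.00435), 0.596 without the 2 farthest tumors and 0.609 after subtraction of group means. Cgas and Sting1, sensor and receptor of one messenger, had an r of 0.01 (permutation p = 0.979, rho = -0.10, permutation p = 0.680), and -0.38 without the 2 tumors farthest from the median Cgas.

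The genes most like each member over the 18 tumors, given as a description, differed from member to member. Sgpl1 (r = 0.933), the double-stranded RNA sensor Tlr3 (0.923) and Tmem168 (0.922) were nearest to Sting1. Nearest to Samhd1 were Tmem229b (0.932), the leukocyte integrin Itgal (0.870) and Fmnl1 (0.850), and to Ikbke Tmf1 (0.817), Cd274 (0.803) and Kbtbd2 (0.796). Kbtbd8 (0.911), Letmd1 (0.875) and Xpnpep3 (0.869) were nearest to Cgas, Marchf7 (0.880) and Ufl1 (0.876) to Tbk1, and Exosc8 (0.826), U2af1 (0.823) and Tmem11 (0.816) to Irf3. Trex1 was nearest to the epithelial protease inhibitor Spint1 (0.924), Crybg1 (0.922) and Igfbp2 (0.922), and Entpd1 (0.895) and fibronectin Fn1 (0.893) were among the 3 nearest to Enpp1.

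**Figure D3:**
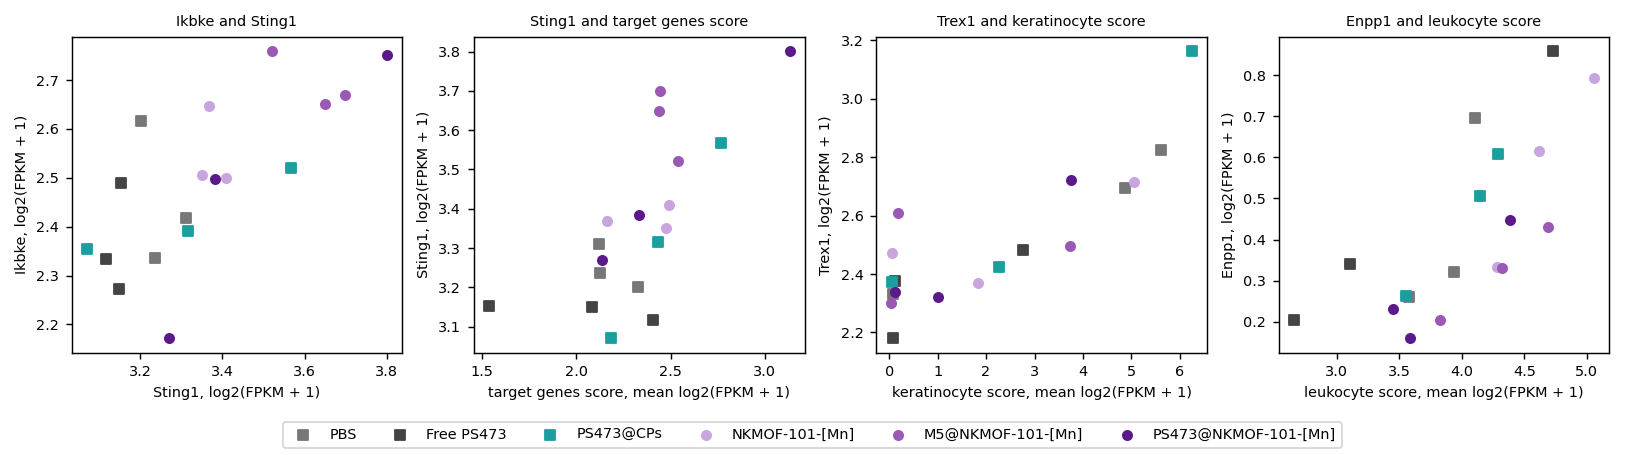
Values of 2 measures in each of 18 tumors, in log2(FPKM + 1) or as the mean log2(FPKM + 1) of a marker list, with circles for framework tumors and squares for the others. Ikbke against Sting1 (r = 0.731), Sting1 against the target genes (0.719), Trex1 against keratinocyte markers (0.846) and Enpp1 against leukocyte markers (0.743) all slope upward.

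Downstream of the pathway, 12 of 18 listed target genes were expressed enough to test. None of the 12 passed the adjusted threshold in the framework comparison, where all 12 had a difference above 0 (47.6% of all genes did). Their median was 0.43, and 2 were higher at an unadjusted p under 0.05 (2.93% of all genes). The 12 are targets of 1 pathway read in the same tumors, so they are not independent. The list summed to at most 574 FPKM in PS473@NKMOF-101-[Mn] tumors and 391 FPKM in tumors without the framework. This comparison of the target genes was not run without PS473@NKMOF-101-[Mn] tumor 2. Against PBS, 10 of the 12 lay above 0 with the empty framework (median 0.16), 11 with M5@NKMOF-101-[Mn] (0.40) and 11 with PS473@NKMOF-101-[Mn] (0.52), where 58.8%, 47.7% and 46.4% of all genes did. So did 10 with PS473@CPs, which holds no framework (median 0.40, 47.3% of all genes), whereas 1 of the 12 did with Free PS473 (median -0.31, 59.5% of all genes). These comparisons share the PBS tumors. The target gene score (mean log2(FPKM + 1) of the 18 listed genes) averaged 2.53 in PS473@NKMOF-101-[Mn] tumors and 2.23 without tumor 2. In single PBS tumors it ran from 2.12 to 2.33. Ifnb1, encoding interferon-β, held 0 to 3 fragments in any tumor, and the interferon-α genes Ifna2, Ifna4 and Ifna5 were listed at 0 in all. Il6 ranged from 0.0446 to 1.78 FPKM, highest in Free PS473 tumor 3, and Tnf from 0.0118 to 1.60 FPKM, highest in PS473@CPs tumor 2. The chemokine Cxcl10 was abundant at 92.3 to 288 FPKM (difference 0.10 ± 0.17), and the ubiquitin-like Isg15 ranged from 7.41 to 77.2 FPKM (0.39 ± 0.29). Isg20, an antiviral exonuclease, ranged from 0.497 to 3.76 FPKM (0.00 ± 0.20), and the antiviral enzyme Rsad2 averaged 16.7 FPKM (0.47 ± 0.25). None of these 4 passed (adjusted p of 0.900 to 0.998 by limma).

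Against Free PS473, 11 of the 12 target genes had a difference above 0 in PS473@NKMOF-101-[Mn] tumors (38.5% of all genes did). The median was 0.74 against -0.04 over all genes. At an unadjusted p under 0.05, 6 were higher (2.11% of all genes), but 0 were called, and the 12 are not independent here either. The smallest p values belonged to Ifit2 (0.52 ± 0.15, adjusted p = 0.781) and Ifit3 (1.51 ± 0.45, adjusted p = 0.781), named after their values were seen. By limma, Usp18 and the interferon regulator Irf7, named in the same way, differed by 1.42 ± 0.44 and 1.68 ± 0.52 (adjusted p = 0.781 for both). Tumor 2 of PS473@NKMOF-101-[Mn] held the highest Isg15, Ifit3, Usp18 and Irf7 of all 18 tumors, at 77.2, 25.9, 30.2 and 34.8 FPKM. It also held the highest summed T and NK cell markers (27.7 FPKM), and Free PS473 tumors 1 and 2 the lowest (1.33 and 1.71 FPKM), and their part in the difference was not tested. Without that tumor the difference in the target gene score (mean log2(FPKM + 1)) from Free PS473 was 0.22 in place of 0.52. Over the 18 tumors the target gene score varied with Sting1 (Pearson r = 0.719, permutation p = 0.00049, adjusted p = 0.0078, Spearman's rho = 0.742, permutation p = 0.00077), and r was 0.613 without the 2 tumors farthest from the median score. With Samhd1 the pooled r was 0.671 (permutation p = 0.00227, adjusted p = 0.0236, rho = 0.637, permutation p = 0.00566), but 0.398 without those 2 tumors, Free PS473 tumor 2 and PS473@NKMOF-101-[Mn] tumor 2. After subtraction of group means the target gene score had an r of 0.671 with Sting1 and 0.528 with Samhd1. Samhd1 also varied with the leukocyte score (r = 0.640, permutation p = 0.0045, adjusted p = 0.0293, rho = 0.633, permutation p = 0.00598), and r was 0.435 without the Free PS473 tumors 1 and 2. With the keratinocyte score Samhd1 passed by rank only (r = 0.550, permutation p = 0.0179, adjusted p = 0.0822, rho = 0.655, permutation p = 0.00396, adjusted p = 0.0297), with r at 0.557 without the 2 farthest tumors. Ikbke with the target gene score (rho = 0.659, permutation p = 0.00395, adjusted p = 0.0297) also passed by rank only. So did Tbk1 with the leukocyte score (rho = 0.595, permutation p = 0.0102, adjusted p = 0.0355).

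The other lists of pathway genes had medians close to 0 in the framework comparison, with 0 genes called in each. Of the cofactors that assist cGAS, STING or TBK1, 15 of 16 were tested, with a median of 0.04. The stress granule protein G3bp1, which promotes DNA binding by cGAS, averaged 136 FPKM (difference 0.01), Sec24c, which carries STING out of the endoplasmic reticulum, 14.1 FPKM (0.03), and the palmitoyltransferase Zdhhc7 11.5 FPKM (0.01). Of the brakes 9 of 11 were tested, with a median of 0.04 and a range of -0.72 to 0.18. The lowest value was that of the ubiquitin ligase Trim29 (-0.72 ± 0.77, adjusted p = 0.906 by limma), named after its value was seen. Sqstm1, an autophagy receptor of STING, averaged 108 FPKM (0.18 ± 0.09, adjusted p = 0.900 by limma), Banf1, which competes with cGAS for DNA, 84.7 FPKM (-0.10), and the STING retriever Surf4 80.8 FPKM (0.07).

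Of the genes that clear nucleic acids 6 of 7 were tested, with a median of -0.05. They included the RNase H2 subunits Rnaseh2c, Rnaseh2b and Rnaseh2a, at means of 51.7, 18.0 and 13.2 FPKM and differences of 0.04, -0.07 and -0.06. Of the genes that move or hydrolyse cGAMP 8 of 12 were tested, with a median of -0.04. The hydrolase Smpdl3a averaged 24.04 FPKM (0.16), the exporter Abcc1 13.1 FPKM (-0.04) and the channel subunit Lrrc8a 6.02 FPKM (-0.05). Of the transcription factors and NF-κB components 10 of 11 were tested, with a median of 0.01 and a range of -0.44 to 0.52. Irf1 averaged 19.4 FPKM (0.52 ± 0.22, unadjusted p = 0.0303, adjusted p = 0.900 by limma), the NF-κB inhibitor Nfkbia 17.9 FPKM (-0.44 ± 0.33, adjusted p = 0.900) and Nfkb1 13.4 FPKM (0.03). Nfkbia reached 51.0 and 38.5 FPKM in PS473@CPs tumor 2 and PBS tumor 2, which are among the 4 tumors rich in keratinocyte markers, and the part of skin in its difference was not tested.

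**Figure D4:**
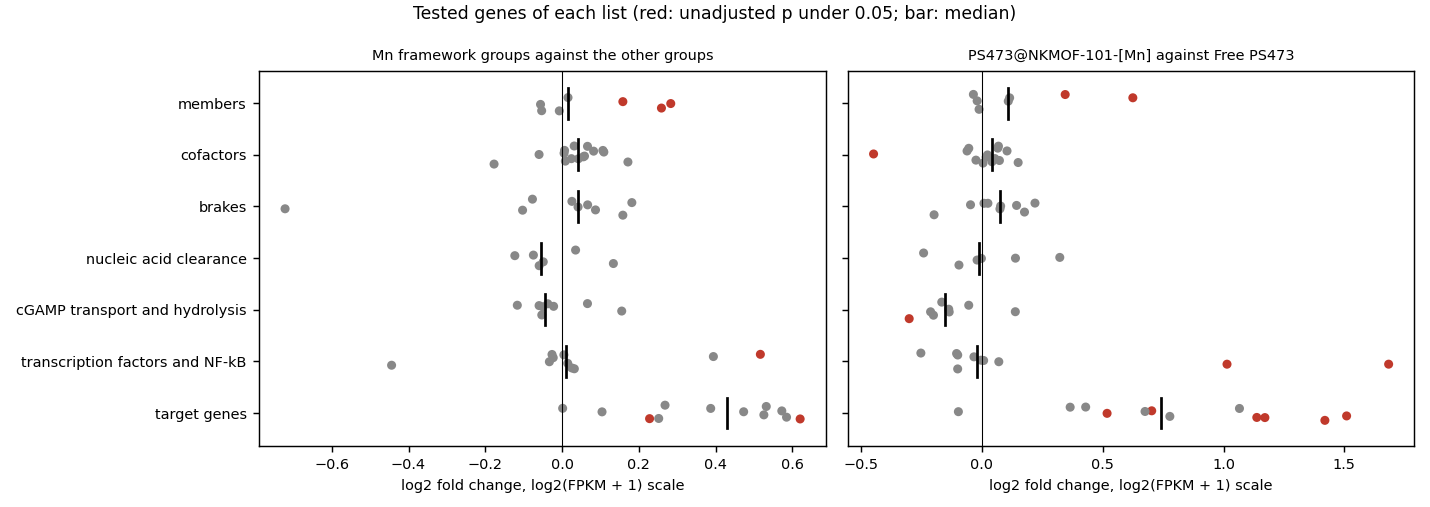
Log2 fold change of every tested gene of each list, on the log2(FPKM + 1) scale, in the framework comparison and in PS473@NKMOF-101-[Mn] against Free PS473, with red points for an unadjusted p under 0.05 and a bar at each median. The target genes lie at medians of 0.43 and 0.74, and the cofactors at 0.04 in both comparisons.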

How the data were processed

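RNA was taken from whole tumors, enriched for poly(A) RNA and sequenced by the authors, who deposited FPKM values of 41079 genes. The submitters' processing notes name genome build GRCm39, and the aligner and counting tool were not given in the sources used here. The members were chosen by name, and they, the gene lists and the tests were chosen with earlier results of these data known. Fragments were recovered from the steps between low values, but only 48.8% to 55.8% of these were whole to within 0.01 fragments, so no count model was used. The 12357 genes that averaged 1 FPKM or more entered a limma fit of log2(FPKM + 1), using limma 3.58.1 in R 4.3.3 with 1 mean per group, a trend in the prior variance and no replicate block. This pseudocount understates changes of low genes. A call required a fold change above 2 with a Benjamini-Hochberg adjusted p under 0.05, and all tests were two-sided. The framework comparison set the mean of 3 group means against that of the other 3. Correlations used 100000 permutations in Python 3.11.15 with numpy 2.4.6 and scipy 1.17.1. The named genes are the 8 members, the 3 most abundant genes of each list and any called, the 3 tested genes most correlated with each member, and Ifnb1, Il6, Tnf, Cxcl10, Isg15 and Isg20. Cd274, Atrip and the genes marked in the text fall outside this rule, and some genes that it names are not reported here. Promoters came from RefSeq. The limma fit was tested on simulated data, with changes larger than the members' differences given here. No 2 tumors held the same values (at least 23628 genes differed).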

Additional observations from a re-analysis of the deposited data

Results flagged for a closer look

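Sting1 in PS473@CPs tumor 3 (10.8 FPKM) lay far above the other 8 tumors that received no framework, the nearest at 8.96 FPKM. The gap was 0.547 of the range of the 9 tumors, over a limit of 0.493. Leaving it out moved the Sting1 difference between framework and other groups from 0.26 to 0.30. Ikbke in PS473@NKMOF-101-[Mn] tumor 3 (3.51 FPKM) lay far below the other 8 framework tumors, the nearest at 4.64 FPKM, a gap of 0.503 of the range. Both sets mix 3 groups, and 32 such ends were examined, of which chance alone is set to pass about 1 in 20 sets.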

How the results depend on the processing

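No member was called under any of the alternatives run, 33 for the framework comparison and 32 for each of the 10 others. Leaving out the 4 tumors rich in keratinocyte markers, which leaves 1 PBS tumor assumed to vary like the other groups, and leaving out the M5@NKMOF-101-[Mn] group, which was run for the framework comparison alone, were chosen after seeing the data. The test over all 6 groups called 4 members with array weights (Sting1, Ikbke, Trex1 and Samhd1), when 18.7% of all genes were called and the weights did not converge, and 1 (Sting1) at an unadjusted p. The Sting1 framework difference lay between 0.19 and 0.30 throughout, with adjusted p values of 0.191 to 0.999 by limma. Replicate numbers did not pair the tumors (median r of -0.02 over 45 same-number pairs, 18 of them above 0.1), and with the replicate block Sting1 differed by 0.26 (adjusted p = 0.929) and 0 members were called.

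Differences near 0 changed sign, and the cause was not tested. In the framework comparison Cgas was 0.015 after quantile normalization and 0.041 without the M5@NKMOF-101-[Mn] group, Tbk1 was -0.059 with the leukocyte score as covariate, and Irf3 was 0.0024 with array weights. Trex1 was 0.0046 with the keratinocyte score as covariate and 0.091 without the 4 tumors. Leaving out single tumors gave -0.057 to 0.047 for Cgas, -0.015 to 0.047 for Tbk1, and -0.10 to 0.029 for Trex1, the last value without PS473@CPs tumor 2. Against PS473@CPs, Trex1 in PS473@NKMOF-101-[Mn] lay between -0.33 and 0.063 when single tumors were left out, and it was 0.063 without PS473@CPs tumor 2 and without the 4 tumors. Samhd1 between active and inactive ribozyme lay between -0.11, without PS473@NKMOF-101-[Mn] tumor 2, and 0.23. Of 56 member differences examined, 36 changed sign under some alternative, all of a main size of at most 0.22.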
